A study of Mus musculus with 12 samples.

Results

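This comparison covers Pdx1-Cre-labelled mouse cells at E10.5 against those at E9.5 (embryonic days), with 3 small RNA libraries per stage, and was chosen by stage label: 6 of the 12 libraries of the series. Cells of both groups expressed Cre from Pdx1, a transcription factor gene of early pancreas and duodenum, and were positive for tdTomato, the red reporter that Cre switches on and by which cells were sorted from the dissected trunk. Ages were the stages themselves, and no treatment was named. Per the study's methods, sires in the tracing crosses had an eGFP cassette in place of a mir-302 allele, and the labels do not give the mir-302 genotype of the embryos. Pdx1-Cre also marks cells of the duodenum and posterior stomach, so a sorted sample is a lineage mixture, labelled as pancreas. Per a panel of the study's figures, each library came from a single embryo, and fewer cells were sorted per embryo at E9.5 than at E10.5. The part of cell number in the results was not tested. The number in the library names was the same within a stage and differed between them, so that stage and any batch it marks cannot be told apart.

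MicroRNAs (miRNAs) are cut from a hairpin precursor into mature strands of the 5-prime (5p) or 3-prime (3p) arm, and they lower the output of messenger RNAs that pair with the seed, the bases near the 5-prime end of the mature strand. In the developing pancreas, miR-375 and miR-7 are known as endocrine miRNAs. The miR-290 and miR-302 clusters are known from pluripotent and early embryonic cells, and let-7 from differentiated cells, where the RNA-binding protein LIN28 no longer blocks its maturation.

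The table held 1053 entries, 633 mature and 420 precursor. Mature sequences were taken from RefSeq (GRCm38.p6), which matched all but 92 of the mature entries. miR-375-3p was among the 92. The strands below are shown because they were called between the stages or, for let-7e-5p and miR-302d-3p, share a seed with strands that were, with the seed (bases 2 to 8) in capitals. The first group shares the let-7 seed.
let-7a-5p: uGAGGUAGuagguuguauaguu
let-7b-5p: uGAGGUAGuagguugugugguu
let-7c-5p: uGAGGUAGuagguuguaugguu
let-7e-5p: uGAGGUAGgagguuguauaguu
let-7f-5p: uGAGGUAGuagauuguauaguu

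The next group holds strands of the miR-302 and miR-290 clusters. miR-302b-3p and miR-302d-3p, both from chromosome 3, share a seed with miR-294-3p from chromosome 7. In contrast miR-292a-5p, from the other arm of a miR-290 cluster hairpin, has a different seed, shared with miR-290a-5p and miR-293-5p.
miR-302b-3p: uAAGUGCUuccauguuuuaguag
miR-302d-3p: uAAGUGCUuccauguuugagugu
miR-294-3p: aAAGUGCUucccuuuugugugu
miR-292a-5p: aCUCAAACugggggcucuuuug

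The last group holds miR-21a-5p, which was lower at E10.5, and 6 of the 8 strands that were higher. miR-182-5p and miR-183-5p come from 1 cluster, and both arms of the miR-379 hairpin are shown because both changed.
miR-21a-5p: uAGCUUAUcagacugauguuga
miR-7a-5p: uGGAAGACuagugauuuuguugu
miR-182-5p: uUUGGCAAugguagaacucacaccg
miR-183-5p: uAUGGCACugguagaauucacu
miR-379-5p: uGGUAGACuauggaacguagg
miR-379-3p: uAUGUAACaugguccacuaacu
miR-3099-3p: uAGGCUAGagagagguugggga

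The libraries of the stages differed in depth and make-up before any entry was compared. The E9.5 libraries held 53996 to 80075 counts and the E10.5 libraries 133435 to 267978. Precursor entries took 20.7 to 36.03% of counts at E9.5 and 12.7 to 13.6% at E10.5, and the precursor entries mir-6236 and mir-6240 alone took 12.7 to 28.3% and 2.03 to 3.10%. The counted reads were too short to span a hairpin. A precursor entry, here and below, therefore holds short reads assigned to a hairpin name and is not a level of whole hairpins. The levels below are CPM (counts scaled to a common library total) with TMM factors, on which 3 counts, taken as the detection floor, stood for 32.0 to 75.9 CPM at E9.5 and 11.4 to 25.8 CPM at E10.5. Intervals and floors cover counting error only. The part of depth and of the mir-6236 and mir-6240 share in the results was not tested.

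To find what differed between the stages, 571 entries that passed a filter on low counts were tested with edgeR's quasi-likelihood test. At an adjusted p under 0.05 (Benjamini-Hochberg over all 571), 25 entries were called, which was 4.38% of those tested: 9 were higher at E10.5 (1.58%) and 16 lower (2.80%). By kind, 19 mature strands (5.04% of those tested) and 6 precursors (3.09%) were called. The higher entries were 8 mature strands and the precursor mir-183, and the lower ones 11 mature strands and 5 precursors. With RLE scaling in place of TMM the split was 1 higher and 23 lower, as the median change over the 571 entries moved from 0.17 to -0.29 (log2). For 90 entries (15.8%) every library of one stage lay above every library of the other, 50 of them higher (8.76%) and 40 lower at E10.5 (7.01%), and 23 of the 90 were called. The number of calls was 13 without E10.5 library 1, 7 without E10.5 library 2 and 42 without E9.5 library 2.

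**Figure D1:**
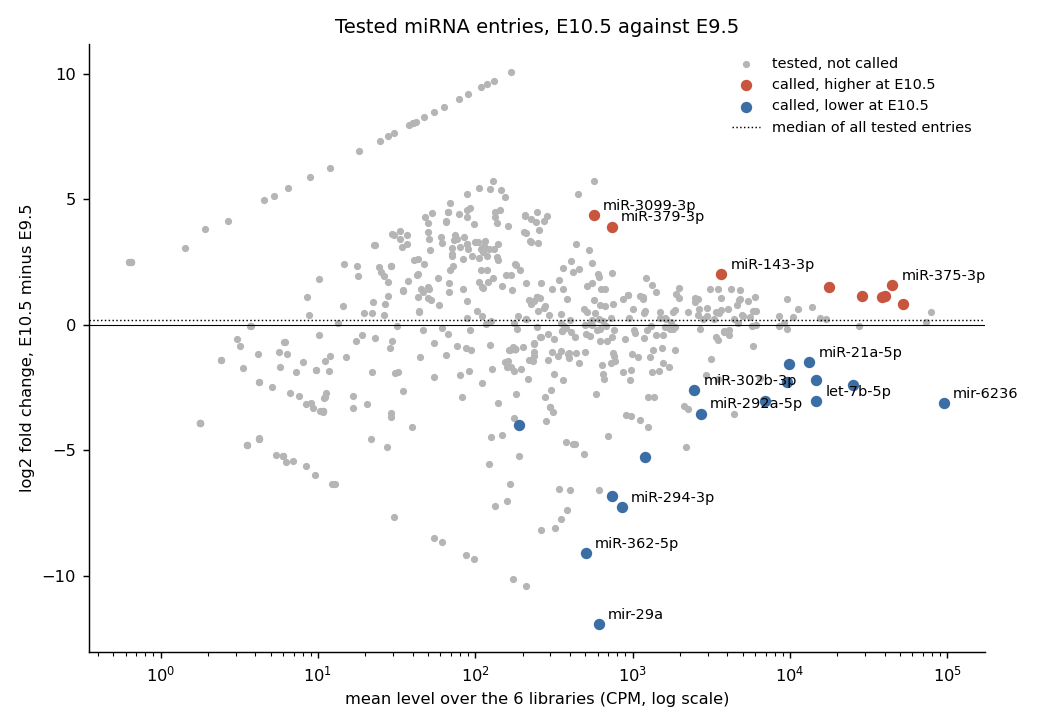
Log2 fold change (E10.5 minus E9.5) against mean CPM over the 6 libraries (log scale) for the 571 entries tested, one point per entry. The 9 entries called higher and the 16 called lower are coloured, and the dotted line is the median of all entries (0.17); the diagonal edges at low levels hold entries whose counts in 1 stage were 0.

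The entries higher at E10.5 were led by pancreatic and epithelial miRNAs that were already abundant at E9.5. miR-375-3p, the best known miRNA of pancreatic islets, stood at 27818, 22597 and 17322 CPM in the E9.5 libraries (libraries 1 to 3) and at 69752, 82362 and 48523 CPM in the E10.5 libraries. The lowest E10.5 library lay above the highest E9.5 library. Its log2 fold change was 1.57 (SE 0.25, adjusted p 0.00078), and it was called without each library in turn and under RLE (1.10, adjusted p 0.0236).

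miR-7a-5p, also abundant in endocrine cells, stood at 31033, 28064 and 16538 CPM at E9.5 and at 61530, 56697 and 47880 CPM at E10.5, without overlap. This was a log2 difference of 1.13 (SE 0.26, adjusted p 0.0128). miR-7b-5p, which has the same seed, was at 2278 ± 1902 CPM at E9.5 (SD, n = 3) and 6179 ± 983 CPM at E10.5, also without overlap, but its difference of 1.44 (SE 0.60) was not called (adjusted p 0.195).

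The clustered miR-182 and miR-183, known from epithelia and sensory organs, rose together. Levels of miR-182-5p were 43196, 38113 and 31154 CPM at E9.5 and 68530, 76075 and 54328 CPM at E10.5, or 0.82 on the log2 scale (SE 0.21, adjusted p 0.0221). Those of miR-183-5p were 21322, 22095 and 29207 CPM against 48333, 68353 and 39620 CPM, or 1.11 on the log2 scale (SE 0.24, adjusted p 0.00852). The precursor entry mir-183 went from 10539, 10209 and 6954 CPM to 26557, 29324 and 22111 CPM, or 1.49 on that scale (SE 0.29, adjusted p 0.00615). In all 3 cases the stages did not overlap. The third member, miR-96-5p, was at 1822 ± 1732 CPM and 741 ± 506 CPM and was not called (-1.30, adjusted p 0.505). miR-182-5p (chr6:30165962-30165986) and miR-183-5p (chr6:30169711-30169732) lie on the minus strand of GRCm38, between genes. As a share of the counts of their 2 strands, miR-183-5p took 39.4% ± 8.01 at E9.5 and 43.6% ± 3.24 at E10.5 (n = 3 each), with overlap.

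miR-379-5p and miR-379-3p, the arms of the first hairpin of the imprinted Dlk1-Dio3 miRNA cluster (chr12:109709065-109709085 and chr12:109709102-109709123, plus strand, GRCm38, between genes), were the 1 hairpin of 87 with both arms tested for which both were called. The 5p arm stood at 17473, 18774 and 17347 CPM at E9.5 and at 36332, 51827 and 30632 CPM at E10.5 (log2 fold change 1.15, SE 0.26, adjusted p 0.0111). The rarer 3p arm was at 32.5, 96.1 and 151.7 CPM against 2166, 1744 and 242 CPM (3.91, SE 1.11, adjusted p 0.045). Neither arm overlapped between the stages, but the 3p arm of E10.5 library 3 came from 62 counts and lay close to the E9.5 range. As a share of both arms the 3p arm was 0.521% ± 0.341 at E9.5 and 3.22% ± 2.42 at E10.5, with overlap. The precursor entry mir-379 was not called (-1.01), and it was the only one of 21 precursor and mature pairs with a call in which the 2 fold changes had opposite signs.

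The other higher strands were less abundant. miR-143-3p, a marker of smooth muscle and other mesenchyme, was at 2014, 1111 and 1214 CPM at E9.5 and at 6250, 3144 and 8236 CPM at E10.5 (2.02, SE 0.51, adjusted p 0.0237). miR-3099-3p (chr7:6803638-6803659, plus strand, GRCm38, in an intron of the paternally expressed gene Usp29) was at 16.2, 85.4 and 50.6 CPM against 521, 1185 and 1523 CPM (4.37, SE 1.13, adjusted p 0.0252). Both were without overlap, and the E9.5 level of miR-3099-3p rested on 1, 8 and 2 counts.

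Calls among the higher entries depended on scaling, on the fit and on single libraries more than that of miR-375-3p did. Under RLE the changes of miR-7a-5p (0.66, adjusted p 0.195), miR-182-5p (0.34, adjusted p 0.451), miR-183-5p (0.59, adjusted p 0.328) and miR-379-5p (0.66, adjusted p 0.241) kept their direction and lost the call. So did miR-143-3p (1.495, adjusted p 0.101), mir-183 (1.02, adjusted p 0.0654), miR-379-3p (3.35, adjusted p 0.0951) and miR-3099-3p (3.89, adjusted p 0.0543). With only the 6 libraries or only the 9 Pdx1-Cre libraries in the fit none of the 8 was called, and with mir-6236 and mir-6240 left out only mir-183 was. miR-7a-5p, miR-182-5p, miR-183-5p and miR-379-5p lost the call with DESeq2 too (adjusted p 0.249, 0.54, 0.405 and 0.27) and with at least 10 counts required in 3 of the 6 libraries (adjusted p 0.0797, 0.195, 0.0869 and 0.053). All 8 also lost the call without E10.5 library 1 (miR-7a-5p at 0.86, miR-182-5p at 0.61, miR-183-5p at 0.97, miR-379-5p at 1.02, mir-183 at 1.29, miR-143-3p at 1.78, miR-3099-3p at 4.46 and miR-379-3p at 3.25). All but miR-143-3p lost it without E10.5 library 2 (miR-7a-5p at 1.09, miR-182-5p at 0.69, miR-183-5p at 0.86, miR-379-5p at 0.90, mir-183 at 1.37, miR-3099-3p at 4.31 and miR-379-3p at 3.73). Other single libraries that ended a call were E9.5 library 3 for miR-7a-5p (0.89) and miR-182-5p (0.69), E10.5 library 3 for miR-143-3p (1.71) and miR-3099-3p (4.13), E9.5 library 1 for miR-379-3p (3.61), and E9.5 library 2 for miR-379-3p (3.75), miR-143-3p (1.67), miR-379-5p (1.02), miR-183-5p (0.87) and miR-182-5p (0.67).

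**Figure D2:**
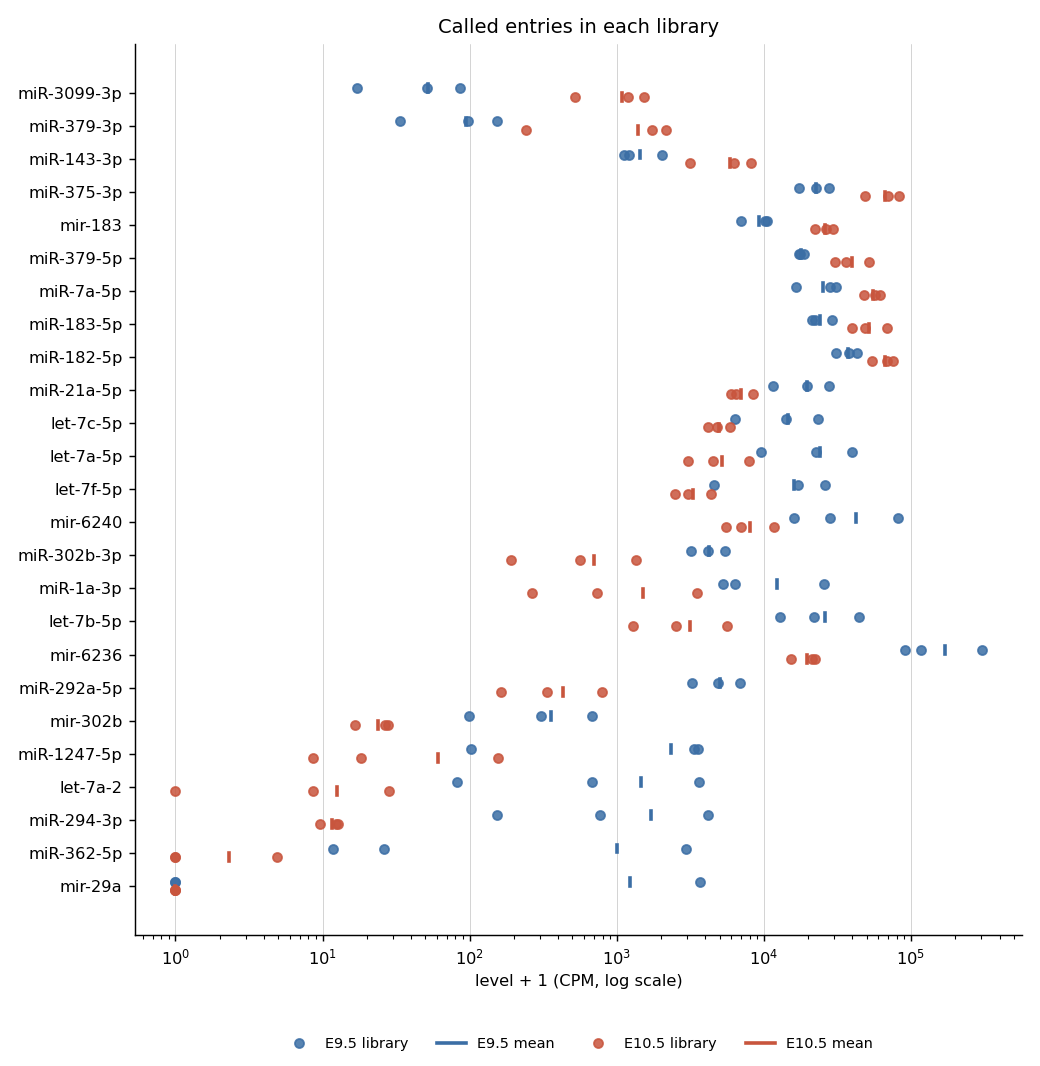
Level plus 1 (CPM, log scale) of the 25 called entries in each of the 3 E9.5 (blue) and 3 E10.5 (red) libraries, ordered by fold change, with short bars at the stage means. The libraries of the stages separate for 23 entries and overlap for miR-1247-5p and mir-29a, whose E9.5 mean came from 1 library.

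Among the lower entries, strands of the early embryonic clusters fell to low levels. miR-302b-3p (chr3:127545275-127545297, plus strand, GRCm38, in an intron of Larp7, which lies on the other strand) was at 4141, 5404 and 3186 CPM at E9.5 and at 190, 1340 and 557 CPM at E10.5. Every E10.5 library lay below every E9.5 library (-2.62, SE 0.54, adjusted p 0.00716, and -3.52 without E10.5 library 2). It was not called when only these 6 libraries were fitted (-2.84, adjusted p 0.0893) or only the 9 Pdx1-Cre libraries (-2.89, adjusted p 0.0679). miR-302d-3p was at 2086 ± 1266 and 560 ± 398 CPM, with overlap, and was not called (-1.90, adjusted p 0.116), and neither were miR-302a-3p (-1.13, adjusted p 0.349) and miR-302c-3p (-1.47, adjusted p 0.54). The precursor mir-302b was called lower (-3.98, SE 1.13, adjusted p 0.045) on 6, 63 and 12 counts at E9.5 against 7, 3 and 4 at E10.5, a call lost without E9.5 library 2 (-3.33) and without each of the E10.5 libraries (-4.38, -4.05 and -3.69). Of the 8 members of the miR-302 cluster tested, 1 mature strand was called lower (2.80% over all entries) and none higher. Their median log2 fold change was -1.67, against 0.17 for all entries.

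miR-292a-5p (chr7:3219200-3219221, plus strand, GRCm38, overlapping an exon of Nlrp12 on the other strand) was at 6869, 3246 and 4906 CPM at E9.5 and at 335, 163 and 787 CPM at E10.5. The stages were well apart (-3.54, SE 0.70, adjusted p 0.00615, and -4.31 without E10.5 library 3). miR-294-3p, from the same cluster, had 257, 72 and 6 counts against 3, 1 and 3, so that every E10.5 library was at or under the floor (-7.26, SE 1.59, adjusted p 0.00852). It moved to -5.34 without E9.5 library 1 and to -7.88 without E9.5 library 3, and leaving out E10.5 library 2 ended the call (-7.26, adjusted p 0.0558). These were the 2 called among 11 tested members of the miR-290 cluster (2.80% of all entries were called lower), whose median was -3.14.

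The let-7 family, which in general gains as cells differentiate, was called lower at E10.5 for 4 of 10 tested members (2.80% over all entries). Its median was -2.18 (0.17 over all entries), and -2.72 under RLE (-0.29 over all entries). Its members together took 10.6, 7.39 and 16.3% of all mature counts at E9.5 and 2.09, 2.27 and 3.57% at E10.5, without overlap. let-7b-5p stood at 21793, 12879 and 43999 CPM at E9.5 and at 1298, 2508 and 5649 CPM at E10.5 (-3.06, SE 0.65, adjusted p 0.00824). let-7a-5p stood at 22654, 9547 and 39574 CPM against 4533, 3041 and 7964 CPM (-2.21, SE 0.47, adjusted p 0.00824). Both were lower in every E10.5 library, and both calls were lost without E10.5 library 2 (-2.90 and -1.93). let-7b-5p moved to -3.69 without E10.5 library 3 and let-7a-5p to -2.79 without E9.5 library 2. let-7f-5p (-2.28, SE 0.52, adjusted p 0.0111) and let-7c-5p (-1.57, SE 0.43, adjusted p 0.0337) also separated, the first with a lowest E9.5 library of 4571 CPM just above the highest E10.5 library of 4338 CPM. The call of let-7f-5p was lost without E9.5 library 1 (-1.59, and -2.88 without E9.5 library 2), and that of let-7c-5p without E9.5 library 3 (-1.03) or any one of the E10.5 libraries (-1.66, -1.68 and -1.44). Among the stages of the series E9.5 was high for let-7a-5p. It averaged 2678 CPM in the E8.5 libraries, which came from another Cre driver, and 12579 CPM at E11.5. By rank of mean CPM among mature strands, let-7b-5p was at 5 at E9.5 and 70 at E11.5, and let-7f-5p at 12 and 34. let-7c-5p was close at these stages, at 14 and 15.

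The let-7 reads were also set side by side without scaling for depth. let-7a-5p had 1395, 894 and 1565 counts at E9.5 and 1191, 354 and 2044 counts at E10.5, which overlapped, in libraries that were 1.67 to 4.96 times deeper at E10.5. Raw counts overlapped between the stages for 14 of the 16 lower calls and for 0 of the 9 higher ones. With every E10.5 library deeper, unscaled counts of a lower strand tend to overlap and those of a higher strand to separate. This split therefore says nothing about the calls. On a scale without precursors, the share of all mature counts, let-7a-5p went from 2.90% ± 1.56 to 0.596% ± 0.341 and let-7b-5p from 3.20% ± 1.63 to 0.363% ± 0.288 (n = 3 each). On that scale 18 of the 19 called mature strands did not overlap between the stages, the exception being miR-1247-5p. In CPM 15.8% of all tested entries did not overlap, and the share over all strands was not computed on this scale. The 19 were picked by a call from the same counts, so their separation is no separate support.

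1 abundant let-7 strand stood apart from the others. let-7e-5p (chr17:17830366-17830387, plus strand, GRCm38, in an intron of Spaca6), which is processed from the same transcript as miR-99b and miR-125a, was at 5749, 3364 and 9129 CPM at E9.5 and at 5508, 6313 and 6168 CPM at E10.5. These ranges overlapped, and its log2 fold change was -0.02 (SE 0.44, adjusted p 0.992). It was singled out after its values were seen. Its share of the let-7 seed family, a ratio within a library that no scaling alters, was 6.55% (95% Wilson interval 5.92 to 7.24), 6.82% (6.12 to 7.58) and 6.41% (5.80 to 7.08) at E9.5. At E10.5 it was 29.6% (28.4 to 30.9), 28.1% (26.4 to 29.9) and 21.2% (20.3 to 22.1). let-7b-5p moved the other way within the family, from 24.8, 26.1 and 30.9% to 6.98, 11.2 and 19.4%. Each difference had an exact two-sided permutation p of 0.1, the smallest that 3 libraries against 3 allow, and 0.275 after adjustment over the 11 such ratios computed. The shares of let-7a-5p, let-7c-5p and let-7f-5p overlapped between the stages.

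**Figure D3:**
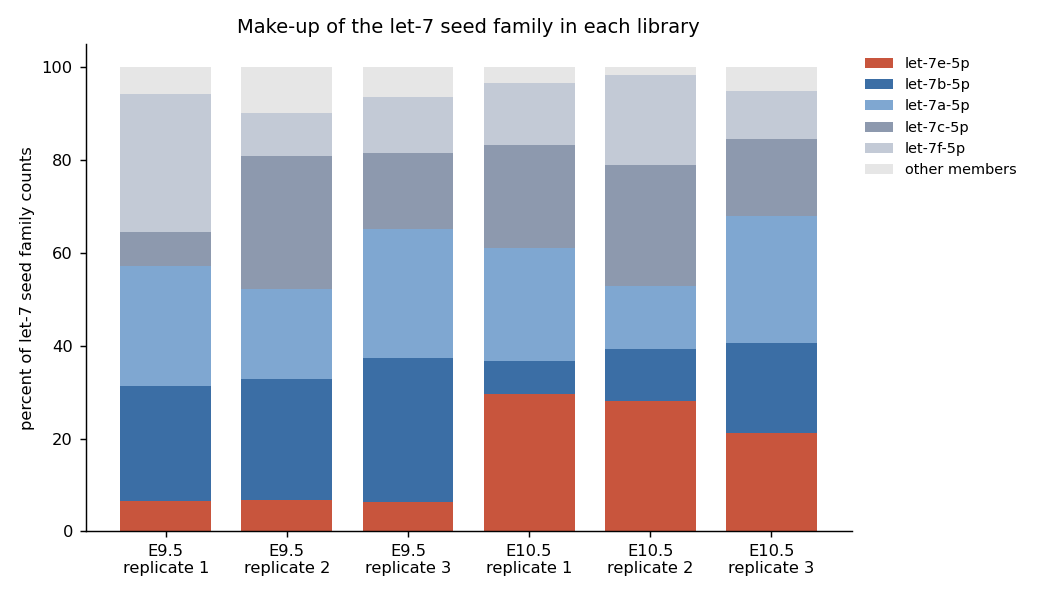
Make-up of the let-7 seed family as a percentage of its counts, one stacked bar per library, with 5 strands shown and the rest pooled. let-7e-5p holds 6.41 to 6.82% in the E9.5 libraries and 21.2 to 29.6% in the E10.5 libraries, while let-7b-5p narrows.

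A list of miR-99, miR-100 and miR-125 strands holds the miR-99b and miR-125a neighbours of let-7e-5p together with strands of other let-7 clusters, and 0 of its 8 tested strands were called (median 1.67, against 0.17 for all entries). For a list of this size that is near the 4.38% called over all entries. Of the neighbours, miR-99b-5p was at 4320, 3086 and 4147 CPM at E9.5 and at 9969, 5626 and 9016 CPM at E10.5. It did not overlap and was not called (1.09, SE 0.39, adjusted p 0.124). miR-125a-5p was at 4542 ± 2122 and 4801 ± 2521 CPM (0.08, adjusted p 0.929), and the rarer strands miR-99b-3p (2.20, adjusted p 0.477) and miR-125a-3p (9.01, adjusted p 0.236) were not called either. miR-125b-5p, which comes from other clusters, was at 2005 ± 1470 and 1045 ± 413 CPM (-0.94, adjusted p 0.505).

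The remaining mature strands called lower were of varied origin. miR-21a-5p, a broadly expressed miRNA of growing and stressed cells, stood at 19552, 11555 and 27639 CPM at E9.5 and at 6452, 8392 and 5981 CPM at E10.5, without overlap (-1.496, SE 0.40, adjusted p 0.0299). Its call was lost without E9.5 library 1 (-1.38), E9.5 library 3 (-1.19) or any one of the E10.5 libraries (-1.62, -1.66 and -1.33). miR-1a-3p, of heart and skeletal muscle, was at 5261, 6354 and 25464 CPM against 735, 266 and 3518 CPM (-3.03, SE 0.81, adjusted p 0.0307), and E9.5 library 3 was the highest library. That call was lost without E9.5 library 3 (-1.99), E10.5 library 1 (-2.95) or E10.5 library 2 (-2.49, and -4.54 without E10.5 library 3), and with library size alone (-2.73, adjusted p 0.0537). It was the 1 tested strand of 4 on the muscle list.

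miR-1247-5p, from an exon of Dio3os at the edge of the Dlk1-Dio3 region, had 221, 314 and 4 counts at E9.5 and 2, 2 and 40 at E10.5 (-5.25, SE 1.33, adjusted p 0.0237). In CPM the stages overlapped, with 101 CPM in E9.5 library 3 and 156 CPM in E10.5 library 3. The call was lost without E10.5 library 1 (-4.96) or E10.5 library 2 (-4.90), and it stood without E9.5 library 3 (-5.85) and E10.5 library 3 (-7.61). miR-362-5p, from an intron of Clcn5, was at 2972, 10.7 and 25.3 CPM at E9.5 and at 0, 0 and 3.90 CPM at E10.5 (-9.11, SE 2.26, adjusted p 0.0221), where both lower E9.5 libraries held 1 count each. Without E9.5 library 1 it was not called (-3.24, adjusted p 0.507). Leaving out E10.5 library 1 (-8.66) or E10.5 library 2 (-8.93) also ended the call, which stood without E10.5 library 3 (-11.77), E9.5 library 2 (-9.85) and E9.5 library 3 (-9.80).

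The other precursors called lower were mir-6236, mir-6240, let-7a-2 and mir-29a. mir-6236 was the most abundant entry at E9.5, at 116272, 91486 and 304607 CPM, and stood at 15244, 21198 and 22138 CPM at E10.5 (-3.13, SE 0.42, adjusted p 0.000113, and -2.43 without E9.5 library 3). It was the 1 entry that kept its call in each of the alternatives that tested it. mir-6240 was at 15931, 28203 and 82158 CPM against 5496, 11733 and 6986 CPM (-2.38, SE 0.49, adjusted p 0.00716), a call lost without E9.5 library 3 (-1.43). Both were highest in E9.5 library 3. mir-6236 and mir-6240 are doubtful as miRNA loci, and what their reads came from was not tested. mir-29a was at 3667 CPM in E9.5 library 3 and at 0 in the other 5 libraries (adjusted p 0.0279), which put the pooled E9.5 level at least 158-fold higher than the floor over the E10.5 group, and without that library there was nothing to compare. Its call was also lost without E10.5 library 1 or E10.5 library 2. let-7a-2 was at 81.2, 672.8 and 3641 CPM against 7.61, 0 and 27.3 CPM (-6.84, SE 1.84, adjusted p 0.0314), and its call was lost without E9.5 library 3 (-4.92), E10.5 library 1 (-6.82) or E10.5 library 2 (-6.29), but not without E9.5 library 2 (-7.43) or E10.5 library 3 (-8.11).

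Because strands with 1 seed can pair with the same targets, counts were also summed by seed and tested in the same way. The 92 mature entries without a RefSeq sequence, miR-375-3p among them, had no seed here and were left out of the sums. Of 250 seed families tested, 11 were called (4.40%), 1 higher at E10.5 and 10 lower. With library size alone 10 were called, 4 higher and 6 lower. The let-7 seed, with 9 members, was at 141874, 89193 and 252173 CPM of seed-assigned counts at E9.5 and at 22181, 27946 and 40974 CPM at E10.5 (-2.41, SE 0.30, adjusted p 7.03e-06). The seed shared by miR-302b-3p and miR-294-3p was at 16373, 17503 and 7924 CPM against 591, 2139 and 2253 CPM (-3.07, SE 0.44, adjusted p 3.94e-05). In it miR-302b-3p gave 50.5% of the summed counts, miR-302d-3p 34.95% and miR-294-3p 14.0%. miR-302a-3p, which had no RefSeq sequence, and miR-302c-3p were not in this sum. The seed of miR-292a-5p, which miR-293-5p and miR-290a-5p share, was at 12359, 7430 and 8953 CPM against 540.5, 235 and 1157 CPM (-3.89, SE 0.63, adjusted p 0.000173). These 3 families did not overlap between the stages and were called without each library in turn, with the let-7 change at -1.82 without E9.5 library 3 and that of the miR-292a-5p seed at -3.24 without E10.5 library 2.

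The 4th family by p was that of miR-21a-5p (-1.93, SE 0.37, adjusted p 0.00126), which lost the call without E10.5 library 1 (-1.70, adjusted p 0.0518) or E10.5 library 3 (-1.53, adjusted p 0.052). 4 further families were called although no strand in them was called in the fit over entries. 3 of them hold 1 strand, so that the same counts, scaled to seed-assigned totals, were called among 250 families and not 571 entries. They were those of miR-146b-5p and miR-146a-5p, known from innate immune cells (-4.22, adjusted p 0.0442), miR-22-3p (-3.95, adjusted p 0.0334), miR-381-3p of the Dlk1-Dio3 cluster (-4.00, adjusted p 0.0333) and miR-6944-3p, from an intron of Dbn1 (-3.31, adjusted p 0.0333). miR-381-3p had 101, 140 and 74 counts at E9.5 and 55, 2 and 48 at E10.5, without overlap. In the fit over entries, scaled to full totals, miR-22-3p was at -3.54, miR-381-3p at -3.58 and miR-6944-3p at -2.89. The part of this scaling in the calls was not tested. Each of the 4 lost its call with library size alone and without either E10.5 library 1 or E10.5 library 2 (-4.19 to -3.005 and -3.45 to -3.13). Without E9.5 library 3 the calls of miR-22-3p (-2.70), miR-381-3p (-3.82) and miR-6944-3p (-2.65) were lost, without E10.5 library 3 those of miR-381-3p (-4.02) and miR-6944-3p (-2.97), and without E9.5 library 1 that of the miR-146 family (-3.19), which was called without E10.5 library 3 (-6.14). The other families of 1 strand, those of miR-1247-5p (-5.57), miR-362-5p (-9.39) and miR-3099-3p (3.94), were called in both fits. None of these 3 was called without E10.5 library 1 (-4.91, -8.67 and 4.44) or E10.5 library 2 (-4.98, -8.89 and 4.15), the miR-362-5p family not without E9.5 library 1 (-3.78), and the miR-3099-3p family not without E9.5 library 1 (3.53), E9.5 library 3 (3.91) or E10.5 library 3 (3.83). Those still called moved to -7.83 for miR-1247-5p and -11.68 for miR-362-5p without E10.5 library 3 and to 4.79 for miR-3099-3p without E9.5 library 2.

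**Figure D4:**
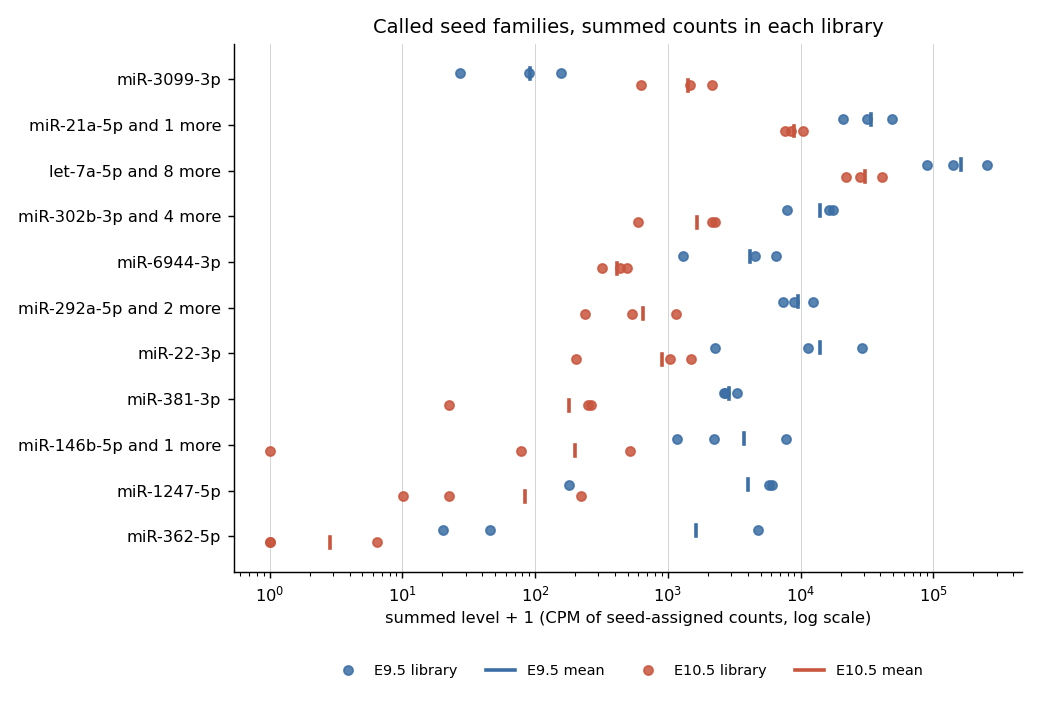
Summed level plus 1 (CPM of seed-assigned counts, log scale) of the 11 called seed families in each E9.5 (blue) and E10.5 (red) library, named by their leading strand, with bars at the stage means. The let-7 family lies between 89193 and 252173 CPM at E9.5 and between 22181 and 40974 CPM at E10.5, and only the miR-3099-3p family is higher at E10.5.

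The most abundant strands of the stages were largely shared. Of the 10 mature strands with the highest mean CPM, 7 were in both lists. miR-92a-3p, of the proliferation-linked miR-17 to 92 cluster, and miR-122-5p, the main miRNA of hepatocytes, held the top ranks at both stages, and neither was called (0.10, adjusted p 0.777, and 0.50, adjusted p 0.344). miR-122-5p was at 91247, 64255 and 38765 CPM at E9.5 and at 71952, 130754 and 71728 CPM at E10.5, with overlap. miR-375-3p went from rank 9 to rank 3, and let-7b-5p, let-7a-5p and miR-21a-5p left the 10, while miR-379-5p, miR-26a-5p (0.24, adjusted p 0.62) and miR-382-5p (0.72, adjusted p 0.251) entered. Against miR-122-5p, with the counts of both as the total, miR-375-3p took 26.8% ± 3.81 at E9.5 and 42.7% ± 5.68 at E10.5, and against miR-92a-3p it took 24.1% ± 3.14 and 46.6% ± 7.94. Neither ratio overlapped between the stages (exact permutation p 0.1 each). The 10 leading strands took 42.5 to 46.9% of mature counts at E9.5 and 52.6 to 62.6% at E10.5.

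Lists of miRNAs by cluster, tissue and cell type were read by their counts and medians beside those of all entries, with no test of the list. On the pancreatic list, miR-375-3p and miR-7a-5p were the 2 called of 8 tested (median 1.502, and 1.05 under RLE). Over all entries 1.58% were called higher. The list took 7.72, 7.97 and 4.62% of mature counts at E9.5 and 15.95, 15.2 and 12.6% at E10.5, without overlap. Most of this share came from the 2 called strands. miR-375-3p took 2.91% ± 0.80 at E9.5 and 7.36% ± 1.27 at E10.5, and miR-7a-5p 3.28% ± 1.22 and 6.16% ± 0.65. The Dlk1-Dio3 miR-379/410 cluster had 48 tested strands, of which both arms of miR-379 were called higher and none lower. That is near the 4.38% called over all entries, and both calls come from 1 hairpin. The cluster median was 0.30, -0.17 under RLE and -0.06 with mir-6236 and mir-6240 left out. In the cluster 7 strands did not overlap and were higher, against 1 lower (over all entries 8.76% and 7.01%). Its summed level was 105928, 114702 and 116497 CPM at E9.5 and 145475, 166931 and 128612 CPM at E10.5, without overlap, but as a share of all mature counts it overlapped, at 12.8, 17.1 and 13.3% against 16.3, 16.8 and 15.6%. Neighbouring strands of the same imprinted region, such as miR-370-3p (6262 ± 2166 and 12881 ± 2274 CPM, 1.04, adjusted p 0.141) and miR-431-5p (1690 ± 1071 and 4499 ± 719 CPM, 1.41, adjusted p 0.197), gave 0 calls of 20 (median 0.62), near the 4.38% over all entries. The abundant miR-409-3p (-0.06) and miR-541-5p (0.27) of the miR-379/410 cluster were not called.

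No strand of the miR-200 family, Hox-cluster and proliferation lists was called. With 4.38% of all entries called, 0 calls is near the background for lists of this size. For the miR-200 family, 0 of 7 were called (median 0.27, -0.32 under RLE and -0.21 with mir-6236 and mir-6240 left out), and miR-200b-3p was at 7555 ± 2995 and 9572 ± 1896 CPM and miR-200c-3p at 8623 ± 2125 and 8367 ± 2021 CPM. miR-200a-3p did not overlap, at 3215, 1335 and 3287 CPM against 936, 1177 and 308 CPM, and was not called (-1.69, adjusted p 0.268). The Hox-cluster list gave 0 of 7 (median -0.74), with miR-10a-5p at 7632, 4304 and 1694 CPM against 1191, 1761 and 2307 CPM (-1.38, adjusted p 0.116). The miR-17 to 92 list gave 0 of 20 (median 0.49), the miR-15/16 list 0 of 7 (0.16), the Sfmbt2 cluster 0 of 20 (-0.55), the miR-23/27/24 clusters 0 of 8 (-0.56), the miR-26 and miR-30 families 0 of 12 (-0.22), the miR-148 list 0 of 4 (-0.60) and the miR-181 family 0 of 5 (1.30). The medians of the miR-17 to 92 and miR-15/16 lists were below 0 under RLE (-0.06 and -0.31) and with mir-6236 and mir-6240 left out (-0.01 and -0.07).

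**Figure D5:**
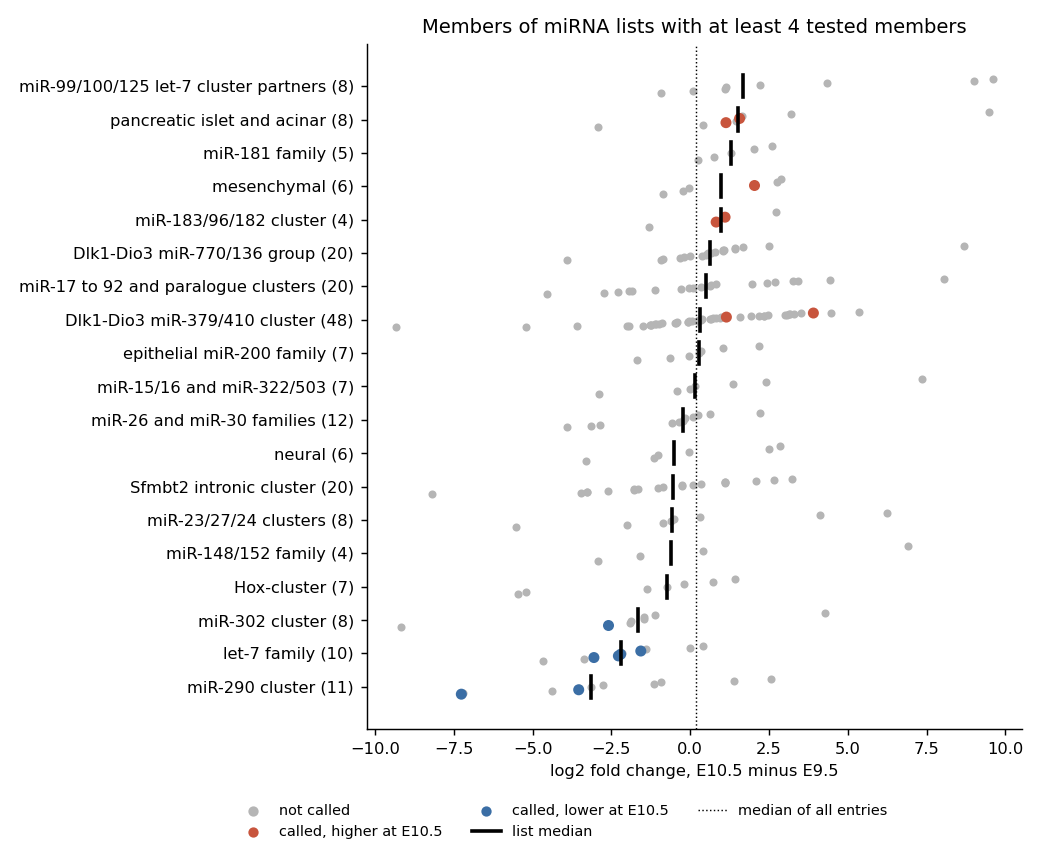
Log2 fold change (E10.5 minus E9.5) of the tested members of each list with at least 4 of them (number in brackets), one point per strand, with called strands coloured, list medians as bars and the median of all entries as a dotted line. The miR-290, let-7 and miR-302 lists have the lowest medians (-3.14, -2.18 and -1.67) and the pancreatic list one of the highest (1.502).

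Markers of other cell types were read as a check on what the sort held. In bulk samples fewer cells of a type and less RNA per cell cannot be told apart. On the mesenchymal list 1 of 6 was called, miR-143-3p, and its summed level was 2273, 1655 and 8598 CPM at E9.5 against 8941, 3753 and 13531 CPM at E10.5, with overlap. miR-199a-3p, a strand that shares reads with miR-199b-3p, was at 114, 246 and 3667 CPM against 1028, 223.3 and 2599 CPM (-0.05). The muscle sum was 5278, 6365 and 26855 CPM against 742, 266 and 3522 CPM. The erythroid sum was 48.7 to 672.8 CPM against 507 to 1200 CPM, the endothelial sum 32.5 to 406 CPM against 240 to 429.5 CPM, the leukocyte sum 10.7 to 3945 CPM against 68.5 to 381.8 CPM and the neural sum 130 to 1217 CPM against 397 to 773 CPM, with 0 calls of 2, 2, 2 and 6 strands. As 4.38% of all entries were called, 0 calls among so few strands is near the background. The skin and lung epithelial strand miR-203-3p was at 1803, 2413 and 27209 CPM against 1804, 1280 and 4107 CPM (-2.12, adjusted p 0.192), and miR-194-5p, of gut and liver, was at 2988, 32.0 and 1720 CPM against 483, 198 and 335 CPM (-2.22, adjusted p 0.314). E9.5 library 3 and E10.5 library 3 each held the highest muscle, mesenchymal, leukocyte and miR-203-3p levels of their stage. The part of other cell types in the results was not tested.

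Many low entries depended on 1 library. Over 90% of the summed E9.5 level of 151 of the 571 entries came from a single library, and the same held for 166 entries at E10.5. 8 entries were found in all 3 E10.5 libraries and in no E9.5 library, and none of them was called. In the reverse direction there were 2, miR-1843a-3p and miR-331-5p, with at most 3 counts in a library, also not called. Just outside the threshold, 18 entries had an adjusted p from 0.05 to 0.10. Among them, singled out after their values were seen, miR-1224-5p was at 0, 42.7 and 25.3 CPM at E9.5 and at 1203, 1074 and 366 CPM at E10.5 (5.21, adjusted p 0.0566). let-7g-5p was at 4027, 1570 and 6752 CPM against 15.2, 335 and 838 CPM (-3.37, adjusted p 0.0566).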

How the data were processed

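Small RNA of sorted Pdx1-Cre-labelled cells was extracted from Trizol LS with the miRNeasy micro kit, and NEXTflex v3 libraries were sequenced. The authors trimmed adapters and 4 random bases, aligned reads to mm10 with STAR in the COMPSRA pipeline and deposited 1 table in which each miRNA entry has a raw read count per library, without normalisation. Random bases were not used to count molecules, so the deposited counts are reads after PCR.

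From these counts, all 12 libraries entered 1 fit of edgeR 4.0.16 (R 4.3.3) with stage as the factor: filterByExpr (minimum count 10, minimum total 15), TMM factors over full library totals, glmQLFit and glmQLFTest for E10.5 minus E9.5, and Benjamini-Hochberg adjustment over all 571 entries (250 for seed sums). The SE is the fold change over the square root of F. Seeds came from RefSeq sequences of GRCm38.p6, the build of the counting genome, and genome contexts from GENCODE annotation of GRCm38. Levels are CPM with TMM-scaled totals, and errors are SDs of 3 libraries. Replicates differed beyond sampling noise (chi-square per degree of freedom 59.7 to 98.1) and each counted once. Named were all called entries and seed families, the 10 most abundant mature strands per stage and the 4 most abundant tested members of each list. Members and lists were chosen with earlier results of these data known. Near-identical copies can share reads. Scripts were tested on simulated data. Alternatives were RLE, library size alone, leaving out mir-6236 and mir-6240, other filters, DESeq2 1.42.0, limma 3.58.1 (voom), subsets of libraries, a replicate block, mature entries alone, a 6-base seed and, chosen after seeing the data, counts under 10 set to 0.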

Additional observations from a re-analysis of the deposited data

How the results depend on the processing

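The count of called entries (25) was within 1.5 times under RLE scaling (24), library size alone (23), without mir-6236 and mir-6240 (21, 2 higher and 19 lower), with at least 10 counts in 3 of the 6 libraries (28), with mature entries only (24) and with counts under 10 set to 0 (27, 17 higher and 10 lower, chosen after seeing the data). It was 50 with no filter, 63 with DESeq2, 43 at an adjusted p under 0.10, 11 with only the 6 libraries, 13 with only the 9 Pdx1-Cre libraries and 1 with limma voom (mir-6236, with 52 entries at an unadjusted p under 0.05). Leaving out 1 library gave 7 to 42. Seed families (11) were 11 with RLE, 10 with library size alone, 10 with bases 2 to 7 as the seed, 19 with no filter, 19 with DESeq2, 3 with limma voom, 6 with only the 6 libraries, 5 with only the 9 Pdx1-Cre libraries, and 4 to 17 when 1 library was left out. The cause of these differences was not tested. Of the 25 entries, 4 kept the call without each library in turn (mir-6236, miR-375-3p, miR-292a-5p and miR-302b-3p, the last lost with only the 6 or the 9 libraries), and 9 kept it in every alternative with all libraries except limma voom. No named result changed sign while called.

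Leaving out mir-6236 and mir-6240 moved the median log2 fold change by -0.35, against -0.46 for RLE and 0.04 for library size alone. The replicate numbers did not pair the samples, since same-numbered libraries of the stages had correlations of -0.10 to -0.02 in their deviations from the stage means. With the replicate block 22 entries and 8 seed families were called. The E9.5 depth limits low entries, where 3 counts stood for up to 75.9 CPM.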
